A study of Danio rerio with 10 samples.

Results

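In zebrafish embryos at 2 days post-fertilization (dpf), 58 of 36351 gene IDs had a level that was lowest in WT (+/+), intermediate in heterozygous (+/-) and highest in homozygous (-/-) carriers of an ebf3a mutation. Members were chosen on CPM (a gene's read count times 1000000 divided by the library's total). Each of the 2 -/- libraries had to lie above each of the 2 +/- libraries, and each +/- library above each of the 2 +/+ libraries. The mean +/+ level could be at most 0.85 times the mean +/- level, the mean +/- level at most 0.85 times the mean -/- level, and the mean -/- level had to reach 2 CPM. A stretch of 105 IDs, LL0000007322 to LL0000007426, was left out, and 20 of them would have met the other conditions. Every 2 dpf difference between genotypes given for the members is therefore a description of values that selected them, and no test of it is read.

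Ebf3 belongs to the early B cell factor (COE) family of helix-loop-helix transcription factors, which bind DNA as dimers and drive the differentiation of neurons and other cells. In humans, loss of a single functional EBF3 copy causes a neurodevelopmental disorder, so the level of a gene in +/- animals, which keep 1 intact copy, is of interest beside that in -/- animals. Zebrafish carry ebf3a and a paralog, ebf3b.

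All groups came from 1 CRISPR/Cas9-induced ebf3a line, whose allele shifts the reading frame and is predicted to truncate the protein, kept on the AB background. The 2 dpf groups were -/-, +/- and +/+ embryos and the 5 dpf groups were -/- and +/+ larvae, with 2 polyA RNA-seq libraries per group and 10 in all. A library was a pool of 15 to 20 embryos at 2 dpf or of 10 to 12 larvae at 5 dpf, sorted by genotyping the posterior part of each animal, so a replicate is a pool and p-values measure the spread between pools. The tissue is labelled upper body with eyes at 2 dpf and head with eyes at 5 dpf, and 1 extraction note of the labels calls the older age 6 dpf where the titles say 5. The 10 libraries held no +/- pool of 5 dpf, so the order of the genotypes with +/- in the middle could not be read at that age. The gene IDs are not paired with gene names in the files, and 0 of them matched a name in the reference tables. The level of ebf3a, the tissue markers and the functions of the members were therefore not analysed here, and neither the genotype nor the tissue labels were checked against expression.

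The 10 libraries held from 30070283 to 47797511 counts on genes, and the +/+ libraries were the deepest of the 2 dpf libraries. Replicate libraries of every group differed by more than sampling noise. The mean chi-square per gene, which is near 1 for sampling noise alone, was 7.50 to 14.9 at 2 dpf and 54.3 to 56.5 at 5 dpf. The scaling factors of edgeR's TMM method lay between 0.983 and 1.02, so CPM and scaled levels were close. The lowest count of any member in a 2 dpf library was 24, and 3 counts corresponded to between 0.0628 and 0.0998 CPM over all libraries. In bulk tissue, a change in the number of cells that express a gene and a change in its RNA per cell cannot be told apart. The strand setting of the counting was not given in the sources used here, so a member that overlaps another gene, or that has a near-identical copy, is uncertain.

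Of the genes outside the stretch, 15759 had a mean -/- level of at least 2 CPM at 2 dpf. The full order of the 6 libraries held in 373 of them, and the ratio limits left 58. With any 1 of the 6 libraries left out, which leaves fewer orders to meet, between 88 and 146 genes passed. Between 44 and 54 of the 58 members were among them, so some members dropped out each time. The members summed to 2066 and 2044 CPM in the -/- libraries, 1537 and 1603 CPM in the +/- libraries and 1216 and 1231 CPM in the +/+ libraries. The median member stood at 6.34 and 6.35 CPM in the -/- libraries, 4.72 and 5.25 CPM in the +/- libraries, and 3.30 and 3.69 CPM in the +/+ libraries. As the conditions require, no member's genotypes overlapped.

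**Figure D1:**
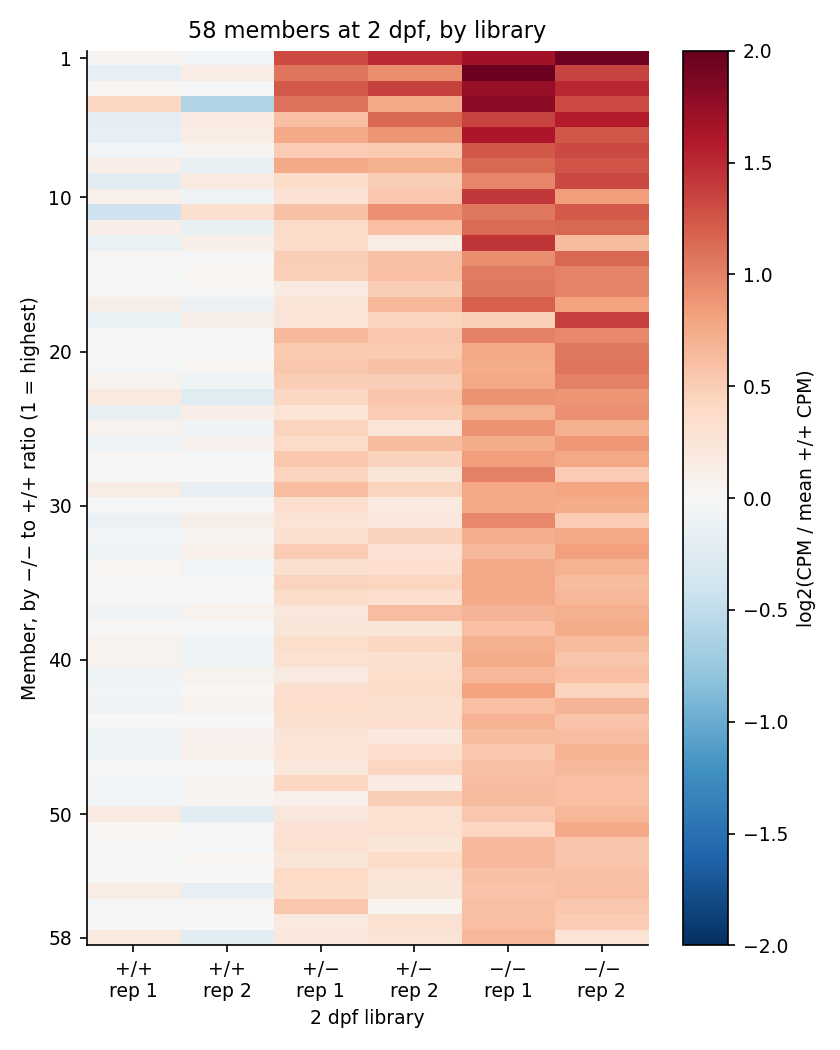
Each row is 1 of the 58 members, ordered by the ratio of its mean -/- to its mean +/+ CPM, and each column is 1 of the 6 libraries of 2 dpf; the colour is log2 of the CPM over the member's mean +/+ CPM. The colour deepens from the +/+ to the +/- and the -/- columns in every row, which the choice of members fixes, and the highest row has a ratio of 3.53.

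The members were mostly of low abundance. Their mean -/- level ran from 2.10 to 426 CPM with a median of 6.25 CPM, against a median of 17.3 CPM over the 15759 genes that met the same minimum. In 37 of the 58 the mean -/- level was under 10 CPM and in 25 of these it was under 5 CPM, while 11 members reached 50 CPM and 5 reached 100 CPM. The mean +/+ level ran from 0.759 to 283 CPM with a median of 3.43 CPM, and the median +/- level was 4.85 CPM.

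The size of the difference was moderate in most members. The ratio of the mean -/- to the mean +/+ level ran from 1.40 to 3.53 with a median of 1.70 and quartiles of 1.55 and 2.03. It reached 2 in 17 members and 3 in 3 members, and it was under 1.6 in 21. From +/+ to +/- the ratio was 1.18 to 2.65 with a median of 1.29. From +/- to -/- it was 1.18 to 1.78 with a median of 1.30. Both steps had to pass the same limit, on the values that chose the members, so the closeness of these medians is not read as an effect of copy number. The larger log2 step lay between +/+ and +/- in 31 members and between +/- and -/- in 27. On the log2 scale the +/- mean stood at 23.7% to 79.4% of the way from the +/+ to the -/- mean, with a median of 51.5%, and 37 members lay between 40% and 60%. The lower limit on each step keeps the +/- mean away from both ends of this range.

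**Figure D2:**
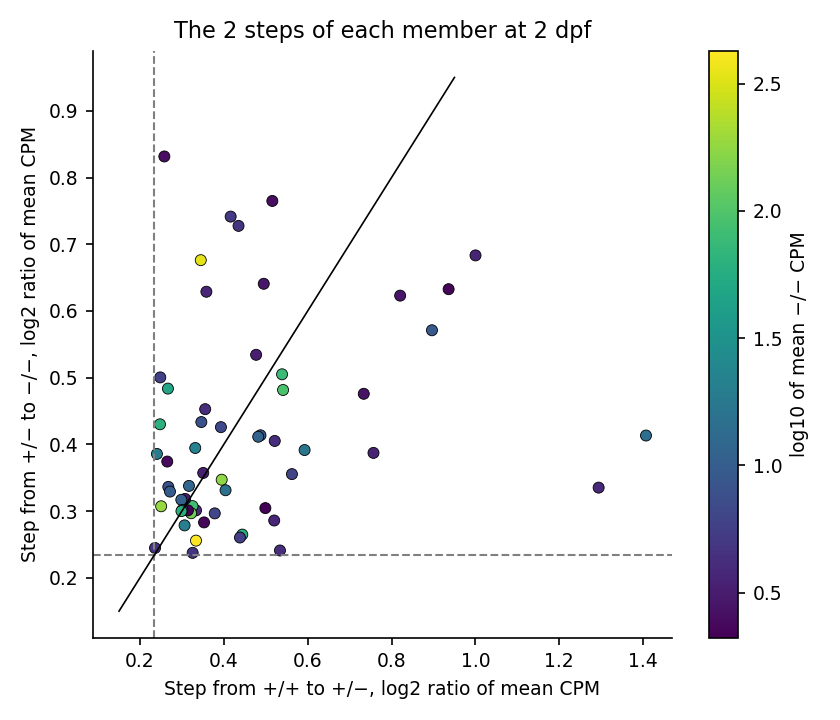
Each point is 1 of the 58 members; the horizontal axis is its log2 ratio of mean CPM from +/+ to +/-, the vertical axis that from +/- to -/-, and the colour its mean -/- CPM on a log10 scale. Dashed lines mark the limit of 0.85 that each step had to pass and the solid line marks equal steps; 31 points lie below the solid line and 27 above it.

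The conditions cut through a continuous range of values. The member nearest the limit on the +/+ to +/- step had a ratio of 0.849 and the nearest gene outside it had 0.853. For the +/- to -/- step these ratios were 0.848 and 0.851. The least abundant member had a mean -/- level of 2.10 CPM, and the nearest gene that failed only on abundance had 1.93 CPM. The member with the smallest overall ratio, 1.40, had 5.19 and 3.95 CPM in the -/- libraries, 3.81 and 3.90 CPM in the +/- libraries and 3.74 and 2.80 CPM in the +/+ libraries. In this member neighbouring genotypes were separated by a few hundredths of a CPM.

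LL0000018706 had the highest ratio of -/- to +/+ of the 58, 3.53. It stood at 12.8 and 15.5 CPM in the -/- libraries, 9.92 and 11.3 CPM in the +/- libraries and 4.14 and 3.87 CPM in the +/+ libraries. The means were 14.1 ± 1.93 CPM in -/-, 10.6 ± 0.974 CPM in +/- and 4.003 ± 0.187 CPM (SD, n = 2 pools each), and the +/- mean lay 77.3% of the way to -/- on the log2 scale. The +/- libraries were thus nearer to -/- than to +/+.

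Among members with at least 1 CPM in every 2 dpf library, LL0000034530 followed with a ratio of 3.09, and 1 member with a library under 1 CPM lay between them at 3.21. The +/- position of LL0000034530, 79.4%, was the highest of all 58 members. It stood at 4.22 and 3.60 CPM in the -/- libraries, 2.94 and 3.26 CPM in the +/- libraries and 1.29 and 1.23 CPM in the +/+ libraries. Both +/+ libraries were well under every library with a mutant copy.

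The most abundant member showed a much smaller difference. It stood at 425 and 427 CPM in the -/- libraries, 374 and 340 CPM in the +/- libraries and 283 and 283 CPM in the +/+ libraries. The next most abundant member stood at 349 and 332 CPM in the -/- libraries, 189 and 237 CPM in the +/- libraries and 164 and 171 CPM in the +/+ libraries. In the first the +/- libraries lay near the middle, and in the second they lay nearer to +/+.

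The 6 libraries were fitted over all genes with edgeR's quasi-likelihood test, with p-values adjusted by Benjamini and Hochberg's method. In this fit, 28 of the 58 members were called higher in -/- than in +/+ at an adjusted p under 0.05, beside 0.871% of the 22383 genes tested. Between +/- and +/+ 6 members were called higher, beside 0.259% of genes, and between -/- and +/- 8 members, beside 0.389% of genes. DESeq2's Wald test called 37, 12 and 11 members in these comparisons, in the same sequence, and its shares over all genes are not given here. These comparisons share libraries with each other and with the choice of members, so nothing is read from the counts. Of the members, 3 were called in all 3 comparisons and 30 in none. No share over all genes is given for these 2 counts, and nothing is read from them either. The fitted log2 difference between -/- and +/+ had a median of 0.78 over the members tested at both ages and a range of 0.50 to 1.84.

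The number of members was set beside the number that the same conditions give when the labels of the 6 libraries are exchanged. Over the other 89 assignments of 3 labels to 3 pairs of libraries, the conditions held for 2 to 103 genes with a median of 19. In 2 of the 89 the number was at least 58, and in both the +/+ pair was placed highest, once with the -/- and +/- pairs kept whole and once with them mixed, which gave 79 genes. When the pairs were kept and only the order of the genotypes was exchanged, the reverse order, with +/+ highest and -/- lowest, held for 103 genes. The order with +/- highest, +/+ in the middle and -/- lowest held for 57 genes, and the order with -/- highest, +/+ in the middle and +/- lowest held for 45. The remaining orders held for 26 and 23 genes. Outside the left-out stretch, the stepwise rise was therefore met by fewer genes than the stepwise fall. It was met by about as many as 1 order in which +/- was not intermediate. The other orders were not counted inside the stretch, where 20 IDs met the rise.

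Each replicate number was also used alone to choose genes and the other was read. Chosen on replicate 1, 219 genes passed the same ratio and abundance limits, and 76 of them (34.7%) had the same order of the 3 genotypes in replicate 2, beside 14.9% of the 15808 genes at the same minimum. The reverse order held in 21 (9.59%), beside 18.5% of genes. Chosen on replicate 2, 203 genes passed, and 72 (35.5%) kept their order in replicate 1, beside 16.0% of 15716 genes, while 16 (7.88%) had the reverse order, beside 15.7%. These shares were not tested against each other. The genes chosen on 1 replicate number are other lists than the 58 members, drawn from the same 6 libraries. The shares are a description and give no independent support for the 58, which were chosen on both replicate numbers. The -/- level was above the +/+ level in the library not used for 70.8% and 76.8% of the chosen genes, beside 46.0% and 49.6% of all genes. The median log2 ratio of -/- to +/+ there was 0.30 and 0.31, beside -0.02 and -0.00 over all genes. All limits were met again by 27 genes in each direction, 12.3% and 13.3% of those chosen, so most genes that 1 library per genotype picked did not pass in the other.

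The 5 dpf libraries took no part in the choice of members, and there no member was called different between -/- and +/+. By edgeR's quasi-likelihood test, adjusted by Benjamini-Hochberg over 23654 genes, 0 of the 56 members that passed the filter on low counts were called, beside 0% of all genes, and the smallest adjusted p over all genes was 0.196. At an unadjusted p under 0.05 there were 0 of 56 members, beside 1.18% of genes, or 278. Leaving out 1 library moved this count: it was 7 of 56 (12.5%, beside 5.09% of genes) without -/- replicate 2, with -/- higher in 2 and lower in 5, and 6 of 56 (10.7%, beside 2.04% of genes) without +/+ replicate 1, with -/- higher in 3 and lower in 3. It was 1 without +/+ replicate 2 and 0 without -/- replicate 1, and no member was called after adjustment in any of these fits. In the fit of all 4 libraries the smallest unadjusted p of a member was 0.0580. With the replicate number as a block in edgeR's test, 12 of 56 members (21.4%) had an unadjusted p under 0.05, beside 7.11% of genes. Of these members -/- was higher in 3 and lower in 9, and none was called after adjustment. DESeq2's Wald test called 2 genes, of which 0 were members. The other 2 members had too few counts at 5 dpf to be tested.

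The fitted log2 difference between -/- and +/+ at 5 dpf ran from -0.51 to 0.60 over the 56 members, with a median of -0.04 and quartiles of -0.22 and 0.13. Over all genes tested the median was -0.01 and the quartiles were -0.16 and 0.11. It was above 0 in 26 members and below 0 in 30, or above 0 in 46.4% of members and 48.0% of genes. The members thus lay on both sides of 0. The standard errors ran from 0.15 to 0.70 with a median of 0.27, and the 95% interval of every one of the 56 held 0. Without +/+ replicate 2 the members' median was 0.09, with 40 of the 56 above 0.

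These errors are from the fit without the replicate number as a block, so they include any difference between replicate numbers. At these errors, a 5 dpf difference as large as that at 2 dpf stayed within the interval of some members. The 5 dpf value was below the member's own 2 dpf value in 56 of 56 members, but the upper end of its interval lay below the 2 dpf value in 38 and above it in 18. The 2 dpf values were picked for being large, and the difference between ages was therefore not tested. Age, the cut of the tissue and the number of animals in a pool changed together and cannot be told apart.

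**Figure D3:**
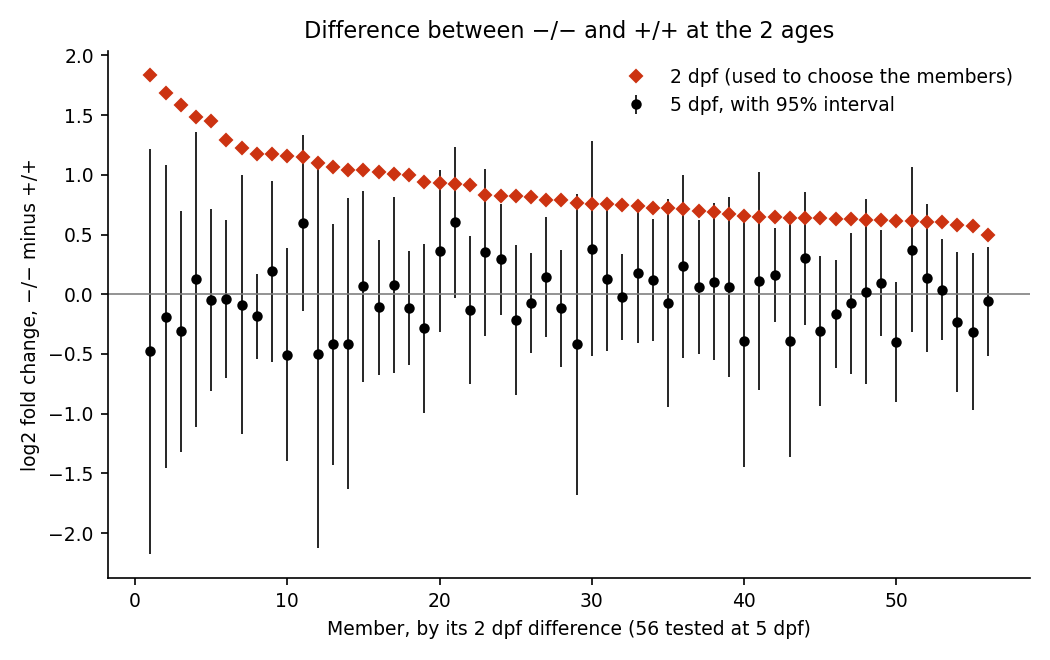
For each of the 56 members tested at 5 dpf, ordered by its 2 dpf value, diamonds give the log2 fold change between -/- and +/+ at 2 dpf, which was used to choose the members, and circles that at 5 dpf with its 95% interval from edgeR. The 5 dpf values lie on both sides of 0, from -0.51 to 0.60, and all intervals, from the fit without the replicate number as a block, cross 0.

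Both -/- libraries lay above both +/+ libraries at 5 dpf in 6 of the 56 members (10.7%), beside 11.3% of genes, and below them in 3 (5.36%), beside 9.7% of genes. The highest fitted value, 0.60 (SE 0.26), belonged to a member with 11.1 and 11.1 CPM in the -/- libraries and 5.71 and 8.72 CPM in the +/+ libraries of 5 dpf. At 2 dpf it had 8.08 and 9.52 CPM in -/-, 6.61 and 6.60 CPM in +/- and 4.97 and 4.46 CPM in +/+. Its -/- libraries were above its +/+ libraries at each age, with an adjusted p of 1.00 at 5 dpf by edgeR's quasi-likelihood test.

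The lowest value among the members whose genotypes did not overlap belonged to LL0000032143. It had 10.0 and 10.8 CPM in the -/- libraries and 14.9 and 12.3 CPM in the +/+ libraries at 5 dpf, a log2 difference of -0.40 (SE 0.21; adjusted p = 1.00, edgeR's quasi-likelihood test). At 2 dpf it had 10.0 and 9.42 CPM in -/-, 7.91 and 7.59 CPM in +/- and 6.52 and 6.32 CPM in +/+, a ratio of 1.52. The -/- libraries stood at almost the same CPM at each age while both +/+ libraries were well above their 2 dpf level at 5 dpf.

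LL0000031954 followed with 31.8 and 30.9 CPM in -/- and 33.8 and 36.7 CPM in +/+ at 5 dpf, a log2 difference of -0.18 (SE 0.15; adjusted p = 1.00, edgeR's quasi-likelihood test). At 2 dpf it had 4.22 and 5.35 CPM in -/-, 2.77 and 3.01 CPM in +/- and 1.85 and 2.43 CPM in +/+, a ratio of 2.24. Its level was several times higher at 5 dpf in both genotypes.

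LL0000018706, with the highest ratio at 2 dpf, had 54.0 and 177 CPM in the -/- libraries and 71.9 and 247 CPM in the +/+ libraries at 5 dpf. The log2 difference was -0.48 (SE 0.70; adjusted p = 1.00, edgeR's quasi-likelihood test). Replicate 2 was above replicate 1 in both genotypes, and the gap between replicates was larger than that between genotypes. Without 1 library the sign of this value turned, to 0.13 without -/- replicate 1 and to 0.67 without +/+ replicate 2. LL0000034530 was nearly absent at 5 dpf, with 2 counts (0.0481 CPM) in -/- replicate 1 and 0 counts in the other 3 libraries. Taking 3 counts per library as the floor, its +/+ level was at least 17.6-fold lower at 5 dpf than at 2 dpf.

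**Figure D4:**
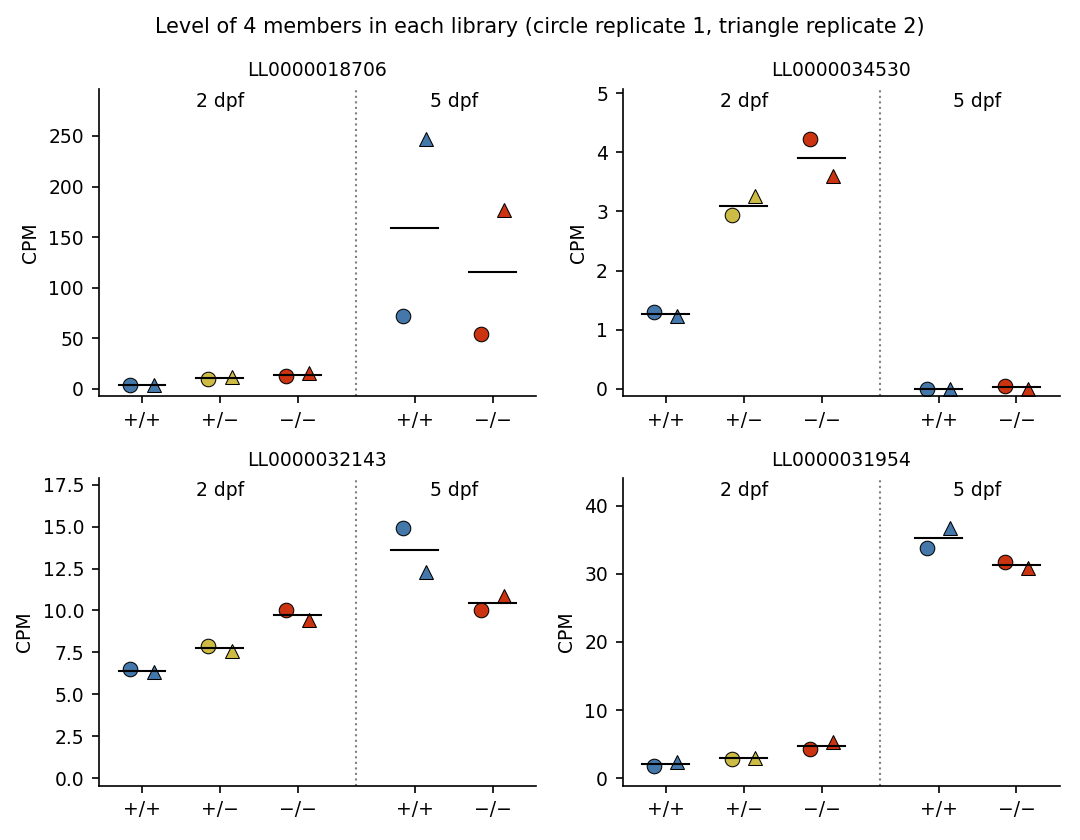
The level in CPM of the 4 members given by ID is plotted for each library, with 2 dpf left and 5 dpf right of the dotted line, circles for replicate 1, triangles for replicate 2 and a bar at the mean of the 2 pools. At 2 dpf +/+, +/- and -/- do not overlap in any of the 4; at 5 dpf LL0000018706 runs from 54.0 to 247 CPM with the replicates apart, LL0000034530 is near 0, and the other 2 have -/- below +/+.

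At 5 dpf the replicate number separated more members than the genotype did. Both libraries of 1 replicate number lay above both of the other in 33 of 58 members (56.9%), with replicate 2 above in 19 and replicate 1 above in 14. The share was 60.1% of the 15759 genes at the 2 CPM minimum, a set other than the genes tested at 5 dpf. The genotypes separated 9 members (15.5%), beside 19.8% of these 15759 genes. Set against each other library by library, with 0.5 CPM added to each level, the median log2 ratio over the members was 0.07 for -/- replicate 1 over +/+ replicate 1, 0.06 for -/- replicate 1 over +/+ replicate 2, 0.05 for -/- replicate 2 over +/+ replicate 1 and -0.13 for -/- replicate 2 over +/+ replicate 2. Over the same 15759 genes these medians lay between 0.01 and 0.05. No pair of libraries thus had the members raised together by the median log2 difference of 0.78 seen at 2 dpf.

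The members stood at higher levels at 5 dpf than at 2 dpf in both genotypes, while age, tissue cut and pool size changed together. Their levels summed to 7516 and 7244 CPM in the -/- libraries and 6796 and 7191 CPM in the +/+ libraries of 5 dpf, of which 1 member held 3948 and 3216 CPM in -/- and 3276 and 2478 CPM in +/+. The median member stood at 14.7 and 14.4 CPM in -/- and 15.2 and 14.7 CPM in +/+. From 2 to 5 dpf the mean +/+ level changed by a median factor of 3.18 over the members and 0.969 over the 15759 genes at the minimum. It more than doubled in 37 members (63.8%), beside 19.6% of genes, and it was lower or equal at 5 dpf in 6. These ratios share the 2 dpf +/+ values that the choice required to be low, so they are a description.

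In the -/- libraries, whose 2 dpf values the choice required to be high, the median factor was 1.70 over the members and 0.971 over genes. It exceeded 2 in 25 members (43.1%), beside 19.1% of genes, and the level was lower or equal at 5 dpf in 14. Genes of low level at 2 dpf more often more than doubled by 5 dpf, so the members were also read against genes in the same range of -/- level at 2 dpf. At 2 to 10 CPM in -/- at 2 dpf, the -/- level more than doubled in 19 of 37 members (51.4%), beside 37.0% of 5655 genes. At 10 CPM and above it did so in 6 of 21 members (28.6%), beside 9.05% of 10104 genes. The +/+ level more than doubled in 70.3% of members and 37.6% of genes at 2 to 10 CPM. At 10 CPM and above these +/+ shares were 52.4% and 9.50%. Both ranges are of the -/- level, and the choice required the members' +/+ levels to be lower. The +/+ shares therefore do not compare genes of like +/+ level. These ratios divide by the 2 dpf levels that chose the members, so the shares are given as a description, with no test.

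**Figure D5:**
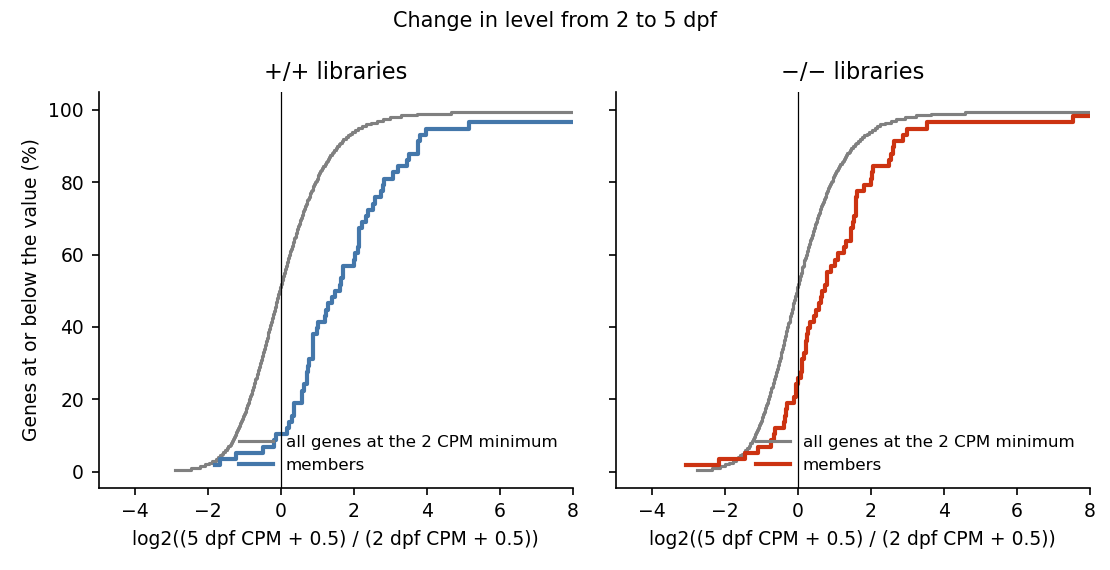
For the +/+ libraries (left) and the -/- libraries (right), the lines give the percentage of genes whose log2 ratio of mean CPM at 5 dpf to that at 2 dpf, with 0.5 CPM added to each, is at or below the value on the horizontal axis, in colour for the 58 members and in grey for the 15759 genes at the 2 CPM minimum. Without the added 0.5 CPM, the median ratio was 3.18 over members and 0.969 over genes in +/+ and 1.70 and 0.971 in -/-, and it exceeded 2 in 63.8% and 43.1% of members.

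The widest change between 2 and 5 dpf was in a member that was barely above the minimum at 2 dpf. It had 2.83 and 3.15 CPM in -/-, 2.34 and 2.46 CPM in +/- and 1.80 and 2.07 CPM in +/+, and at 5 dpf 3948 and 3216 CPM in -/- and 3276 and 2478 CPM in +/+. A second member, 5 IDs away, had 2.19 and 2.10 CPM in -/-, 1.79 and 1.69 CPM in +/- and 1.25 and 1.21 CPM in +/+ at 2 dpf and 487 and 493 CPM in -/- and 463 and 557 CPM in +/+ at 5 dpf. For both, all genotypes stood within 2 CPM of each other at 2 dpf, with ratios of -/- to +/+ of 1.54 and 1.75. At the far higher levels of 5 dpf the log2 difference was 0.30 in the first and -0.07 in the second, with overlapping genotypes in each. The most abundant member at 2 dpf had 713 and 446 CPM in -/- and 511 and 536 CPM in +/+ at 5 dpf, a log2 difference of 0.14 with overlapping genotypes.

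The distance from 1 member to the next in the list of IDs ran from 1 to 5045, with a median of 416. Within 30 IDs of each other lay 9 consecutive pairs, of which 2 were adjacent. No such count was made for other sets of genes, so whether 9 is many or few was not tested. The sources used here do not state whether neighbouring IDs lie beside each other on a chromosome. The 4 members closest together in the list lay within 53 IDs, and each of the 4 had a mean -/- level of at least 50 CPM. The first had 71.1 and 82.3 CPM in -/-, 52.5 and 55.7 CPM in +/- and 37.8 and 36.6 CPM in +/+ at 2 dpf. The last had 130 and 137 CPM in -/-, 100 and 117 CPM in +/- and 86.6 and 87.2 CPM in +/+. At 5 dpf all 4 had replicate 2 above replicate 1 in both genotypes, with the first at 100 and 188 CPM in -/- and 124 and 258 CPM in +/+. Of the IDs spanned by the 4, 43 had a mean -/- level of at least 2 CPM at 2 dpf. Both -/- libraries lay above both +/+ libraries at 2 dpf in 15 of these 43, the 4 members included, beside 22.5% of all genes at that minimum. The span was picked by its members, which these same 2 dpf values chose, so nothing is read from this count. Another member lay 5 IDs past the end of the stretch that was left out.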

How the data were processed

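RNA was sequenced by GENEWIZ from pools of zebrafish embryos or larvae. Per the labels, the authors aligned reads with STAR 2.7.3a to GRCz11 (the methods of the study name another STAR version) and deposited unnormalized read counts; the gene IDs are those of the Lawson Lab annotation. The study's own tests used DESeq2.

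CPM was computed from the total over the 36351 IDs, and members were taken by the conditions given in the report. Members and lists were chosen with earlier results of these data known. Each age was fitted alone with edgeR 4.0.16 (filterByExpr, TMM, quasi-likelihood test, Benjamini-Hochberg adjustment over all genes tested, threshold 0.05), with the 3 genotypes of 2 dpf in 1 fit. The edgeR fit without a block was also run on simulated counts, with an outcome not given here. Those counts held no effect of the replicate number, so they cannot show how the fit handles the 5 dpf replicates. DESeq2 1.42.0, other scalings and filters, other limits, the replicate number as a block and leaving out each library were the alternatives. As IDs carried no names, at most 4 were given: the 2 members with the highest 2 dpf ratio of -/- to +/+ among those with at least 1 CPM in every 2 dpf library, and the 2 with the lowest 5 dpf log2 fold change among members without overlap of -/- and +/+. Other members were singled out after their values were seen and are given without IDs.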

Additional observations from a re-analysis of the deposited data

Results flagged for a closer look

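In 3 members, -/- was above +/+ in every library of 2 dpf, as the choice of members requires, and below +/+ in every library of 5 dpf. This 5 dpf order held in 5.36% of the 56 members tested, beside 9.7% of all genes tested, so it was not more frequent among the members. The 5 dpf log2 differences were -0.40 for LL0000032143, -0.18 for LL0000031954 and -0.16 for another member. None of the 3 was called at 5 dpf by edgeR's quasi-likelihood test. The difference between the ages was not tested, since the 2 dpf values chose the members.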

How the results depend on the processing

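The number of members, 58, followed the limits: it was 29 with a ratio limit of 0.80, 138 with 0.90, and 33 with a minimum of 5 CPM. It was 69 with TMM scaling, 71 with DESeq2's size factors, 72 with a minimum of 1 CPM and 78 with the left-out stretch kept. Without 1 library, which relaxes the order, it was 88 (without +/- replicate 2) to 146 (without -/- replicate 2). Of the 58 members, 44 (without +/- replicate 2) to 54 (without +/+ replicate 2) still passed. Under TMM scaling the reverse order held for 107 genes and under size factors for 100, a count chosen after seeing the data.

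At 5 dpf no member was called under any alternative run. Over all genes the 0 calls of edgeR became 1 with no filter on low counts, 2 with DESeq2's Wald test, and 0 to 2 without 1 library. The replicate number as a block gave 10 calls, none of them a member, and 12 of 56 members (21.4%) had an unadjusted p under 0.05, 3 with -/- higher and 9 with -/- lower, beside 1681 genes (7.11%). The methods of the study state no block, so the numbers were not taken as pairing the pools. With only 2 pairs, deviations of same-numbered libraries correlated over genes at 0.50 at 5 dpf and between -0.02 and -0.00 at 2 dpf. A difference shared by replicate number at 5 dpf widens the errors of the fit without a block. The members' median log2 difference of -0.04 was -0.0747 to 0.0894 without 1 library, the highest value, with 40 of 56 members above 0, coming without +/+ replicate 2. For LL0000018706 it was -1.55 to 0.67, turning to 0.13 without -/- replicate 1 and to 0.67 without +/+ replicate 2. With a ratio limit of 0.90, both -/- libraries lay above both +/+ libraries at 5 dpf in 18 of 136 members (13.2%) and below them in 12 (8.82%). With 0.80 they lay above in 5 of 28 (17.9%) and below in 1 (3.57%). Over all genes tested these shares were 11.3% above and 9.7% below. At 2 dpf, DESeq2's Wald test called 37 members between -/- and +/+ in place of 28, and 12 between +/- and +/+ in place of 6. Between -/- and +/- it called 11 in place of 8. Its shares over all genes are not given here.

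With 2 pools per genotype and a median standard error of 0.27 at 5 dpf, the limit on detection was not confined to small differences. The highest log2 difference of a member, 0.60, was not called. In the edgeR fit without a block 0 genes were called, though log2 differences over all genes ran from -4.00 to 4.26. The lack of calls among the members therefore does not show that they were equal in -/- and +/+.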
